A study of Mus musculus with 6 samples.

Results

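The genes described here are 38 type I interferon-stimulated genes, chosen by name as a curated list of antiviral effectors, sensors and regulators. Of these, 37 were found among the 19977 genes of the table, and Mx1 was not analysed here. All 37 had a mean FPKM (fragments scaled by transcript length and library total) of at least 1 over the 6 libraries, the minimum for testing, which 10509 genes met.

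The RNA came from CD4+ T cells, the helper lineage, purified by flow cytometry out of spleen and lymph nodes of C57BL/6 mice with wild-type genotype. All cells had been kept for 6 hours with antibodies to CD3 and CD28, which trigger the T-cell receptor complex and its costimulatory receptor. One group of 3 libraries came from young mice of 6 to 8 weeks, an age that the sample titles code as 1M, and the other group of 3 from mice of 11 months, called old. The labels do not say whether a library stands for 1 animal or for pooled animals, and the p-values therefore reflect only how these libraries vary, part of which may be technical.

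Type I interferons are cytokines made by many cells upon sensing foreign nucleic acid. They bind the receptor IFNAR1/IFNAR2, whose kinases JAK1 and TYK2 activate transcription factors of the STAT family. These join IRF9 in the complex ISGF3, which binds the interferon-stimulated response element in the promoters of its target genes. The targets degrade or trap viral RNA, block translation, sense nucleic acid and feed back on the pathway. T cells carry the receptor and hold a basal level of many of these transcripts. Interferon gamma, which activated T cells secrete, acts through the gamma-activated site and raises a partly shared set of genes.

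The response element was visible in the reference promoters of these genes. RefSeq promoter windows on GRCm38.p6, from 250 bases before to 50 after each start, were matched for 28 of the 37 genes. Both strands were searched for the letters GAAA, any 2 bases and GAAA again, the core of the response element, and for TTCNNNGAA, the core of the gamma-activated site, with overlapping matches counted. The first was present in 15 of the 28 (53.6%), against 330 of 8510 tested genes with a promoter (3.88%), and in 3.44% of all 32851 windows. The second was present in 6 of the 28 (21.4%), against 8.43% of the tested genes and 8.3% of all windows. No entry was matched for Dhx58, Ifi204, Ifi27l2a, Oas2, Parp14, Parp9, Rtp4, Usp18 or Zbp1.

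The 170 bases that end just before the annotated start are shown for 5 of the 15 genes, 5' to 3' on the gene's strand. They were picked because their levels, given further on, peaked in different libraries although all hold the same core. Oas1a, Isg15 and Oas3 were highest in old replicate 3, and Ifit3 and Ddx60 in young replicate 1. Capitals mark the matches to the response element core, which read TTTC, 2 bases, TTTC where the match is on the other strand.

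Oas1a (chr5:120907526-120907695, minus strand): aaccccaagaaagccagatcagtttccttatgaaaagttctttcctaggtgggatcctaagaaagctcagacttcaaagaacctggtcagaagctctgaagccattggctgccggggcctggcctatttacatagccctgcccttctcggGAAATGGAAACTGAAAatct
Isg15 (chr4:156200819-156200988, minus strand): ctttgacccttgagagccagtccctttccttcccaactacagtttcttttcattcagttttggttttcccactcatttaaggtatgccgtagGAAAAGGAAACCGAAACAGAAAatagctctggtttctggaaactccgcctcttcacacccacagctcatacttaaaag
Oas3 (chr5:120777660-120777829, minus strand): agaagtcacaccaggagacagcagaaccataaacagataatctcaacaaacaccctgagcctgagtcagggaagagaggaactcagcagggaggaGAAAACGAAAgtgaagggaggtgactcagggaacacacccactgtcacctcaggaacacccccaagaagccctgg
Ifit3 (chr19:34583359-34583528, plus strand): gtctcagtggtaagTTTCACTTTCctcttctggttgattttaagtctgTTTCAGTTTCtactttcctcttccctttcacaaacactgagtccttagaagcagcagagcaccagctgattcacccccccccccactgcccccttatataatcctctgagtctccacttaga
Ddx60 (chr8:61927917-61928086, plus strand): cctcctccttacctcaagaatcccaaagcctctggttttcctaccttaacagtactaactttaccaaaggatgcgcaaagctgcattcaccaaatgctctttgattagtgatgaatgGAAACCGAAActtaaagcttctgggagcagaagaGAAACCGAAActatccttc

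Oas1a held 2 overlapping matches, at -20 to -11 and -14 to -5 relative to the start, close to where transcription begins. Isg15 held 3 in a row, from -78 to -57. Ifit3 held 2 on the other strand, at -156 to -147 and -122 to -113, and Ddx60 held 2 at -53 to -44 and -19 to -10. Of the genes that peaked in old replicate 3, 9 of 14 with a promoter held the core, and of those that peaked in young replicate 1, 6 of 14. A match is a description of the letters in the window, and nothing here measured whether a factor bound it.

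**Figure D1:**
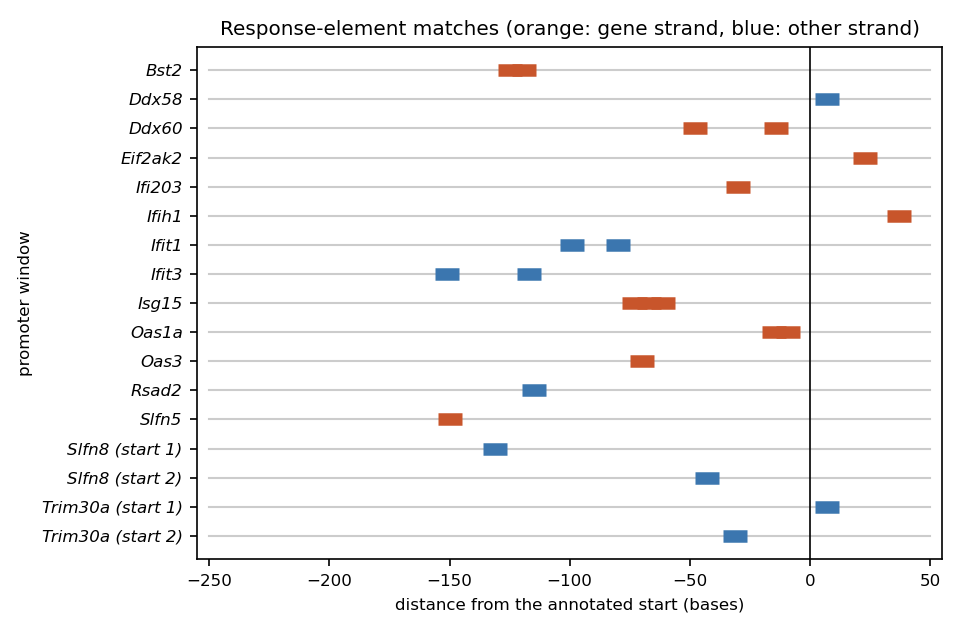
Matches to the core of the interferon-stimulated response element by distance from the annotated start in bases, 1 line per promoter window with a match. Orange marks matches on the gene's strand and blue those on the other strand. The 2 overlapping matches of Oas1a lie at -20 to -5, and the 3 of Isg15 at -78 to -57.

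Total expected counts ran from 16932551 to 18708205 per library. Replicate 1 of the young group stood apart from the other libraries over all tested genes. Its log2 scaled counts (CPM) correlated with the other young libraries at 0.926 and 0.913, while those 2 correlated at 0.98 and the old libraries among themselves at 0.974 to 0.985 (Pearson, across genes, which are not independent). The defining genes of CD4 T cells were high in every library, with a summed FPKM of 1721 to 2193 in old and 1581 to 1762 in young libraries, and those of other cell types were low. Old and young libraries are therefore also compared without young replicate 1, with values for several genes that it set apart.

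Between old and young libraries 1 of the 37 interferon-stimulated genes was called. Over all genes 92 of 10509, or 0.875%, passed an adjusted p of 0.05, by Benjamini-Hochberg adjustment of edgeR's quasi-likelihood test, and Oas1a was among them. It was higher in old libraries, and 0 of the 37 passed as lower. An unadjusted p under 0.05 was reached by 5 of the 37, with Oas1a, Ifi204 and Ifih1 higher and Oas2 and Ifit3 lower. That is 13.5% of the 37, near the 10.6% of all tested genes, the share against which the later counts of unadjusted p are also to be read. DESeq2, which called 4.77% of all genes, called Oas1a and Ifih1. Limma on log2(FPKM + 1), which called 0.942% of all genes, called Oas1a.

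The log2 difference, old minus young, was above 0 in 16 and below 0 in 21 of the 37. Its median was -0.13, against -0.035 over all tested genes, and it ran from -1.44 for Ifit3 to 1.69 for Ifi204. The 2 groups did not overlap with old higher for 3 of the 37, against 9.9% of all genes, and with old lower for 1 of the 37, Trim25, against 6.54% of all genes. Since the RNA is from bulk cells, a lower level cannot tell fewer expressing cells from less RNA per cell.

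**Figure D2:**
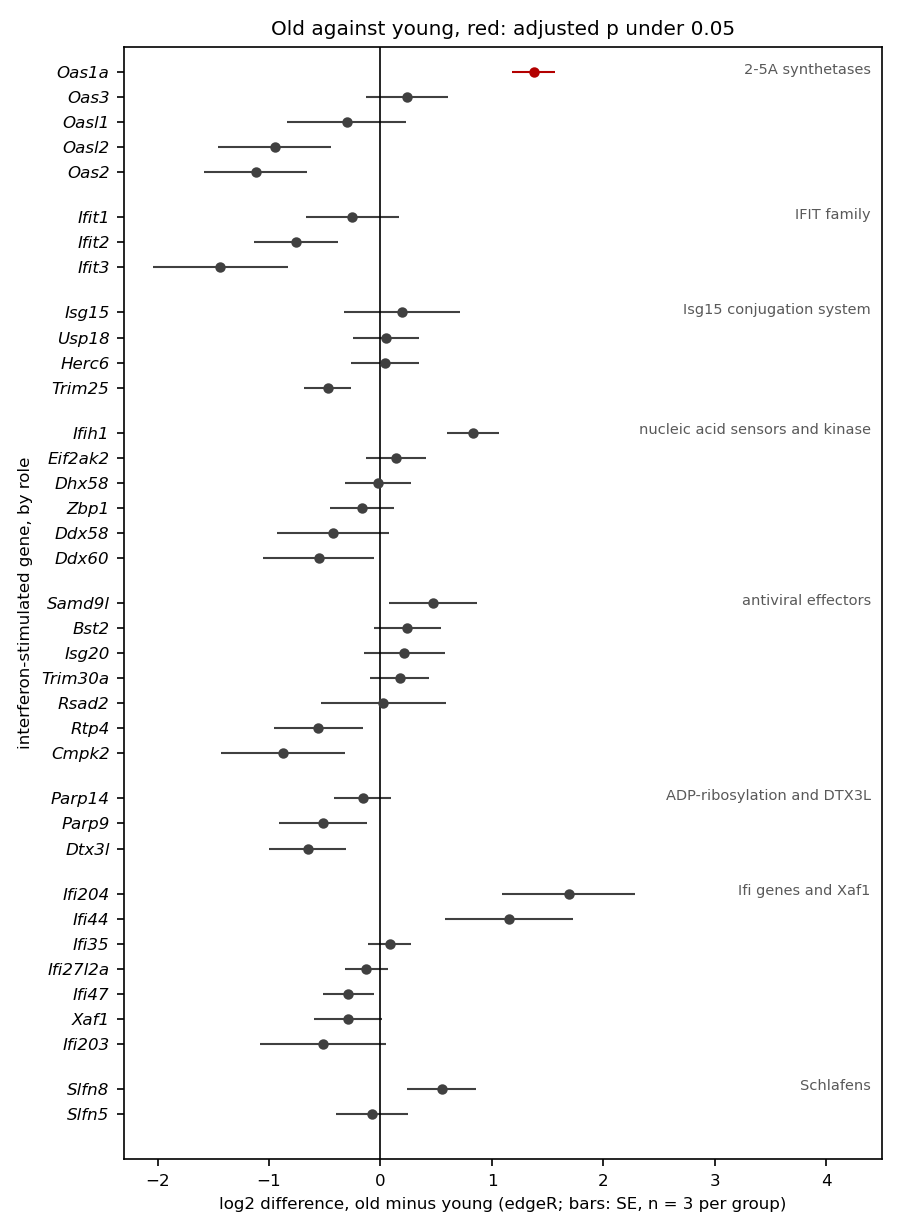
Log2 difference, old minus young, of each of the 37 genes by role, with bars of 1 SE (edgeR, n = 3 per group). Oas1a, in red, at 1.37 passed an adjusted p of 0.05, and the others lie from -1.44 to 1.69.

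Levels also varied between libraries of the same age. For all 37 genes the highest of the 6 libraries was either old replicate 3 (17 genes) or young replicate 1 (20 genes). Over all tested genes these libraries held the highest value of 45.7%. Old replicate 1 held the lowest value of 20 of the 37 (54.1%), against 6.98% of all genes. Within the old group, replicate 3 was the highest for 36 of the 37 (97.3%), with Eif2ak2 the exception, against 33.1% of all genes. The levels stood in the order replicate 1 below 2 below 3 for 31 of the 37 (83.8%), against 16% of all genes. Replicate numbers are names, and the order is given only to show that most of these genes ranked the same 3 libraries alike.

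The spread among old libraries was wider than over all tested genes. The highest old library exceeded the lowest by a median of 1.77-fold, with a range of 1.13 to 5.88. It exceeded it by more than 2-fold for 14 of the 37 (37.8%), against 5.56% of all genes. Among the 32 genes with at least 100 counts in each old library, 9 (28.1%) did so, against 2.44% of the 9181 tested genes at that depth. The SD of log2 CPM among old libraries had a median of 0.42 over the 37, against 0.15 over all tested genes, and among young libraries 0.45 against 0.35. CPM is here the count scaled by the TMM-adjusted library total, used to compare 1 gene across libraries.

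**Figure D3:**
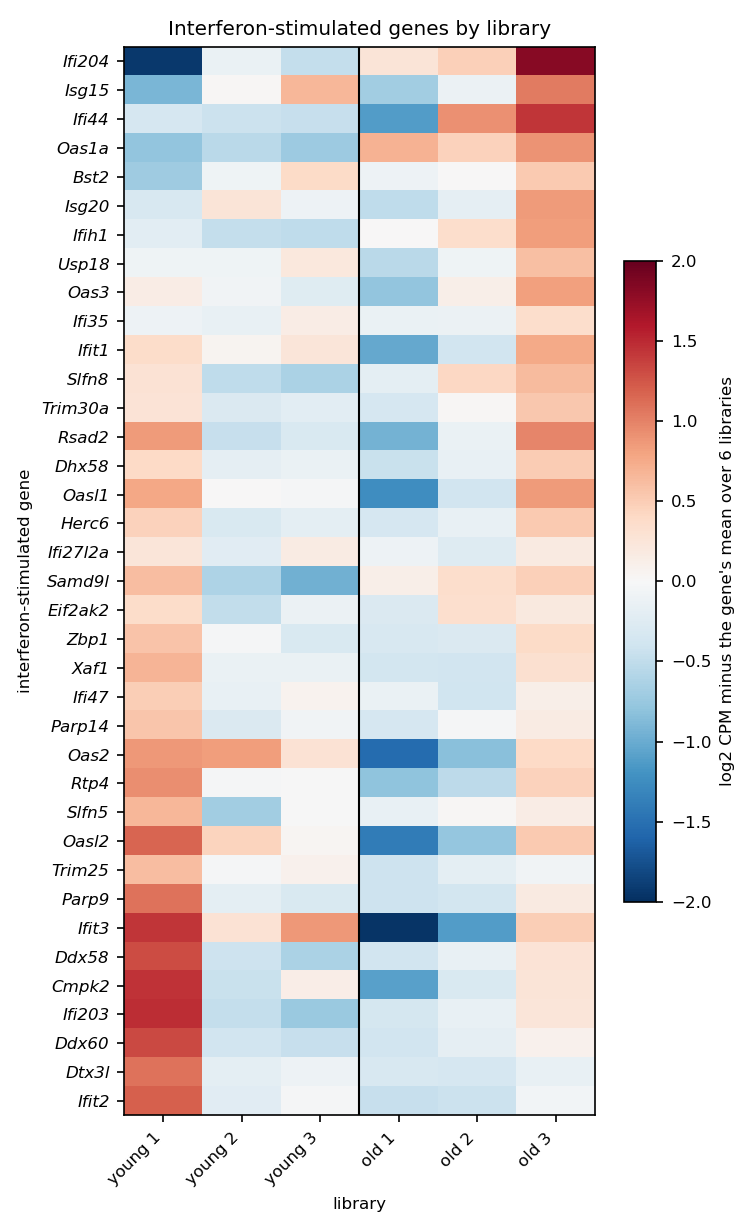
Log2 CPM of the 37 genes in the 6 libraries, each gene centred on its mean, with genes ordered from those highest in old replicate 3 to those highest in young replicate 1. Old replicate 3 and young replicate 1 hold the highest value of every gene, 17 and 20 of the 37.

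**Figure D4:**
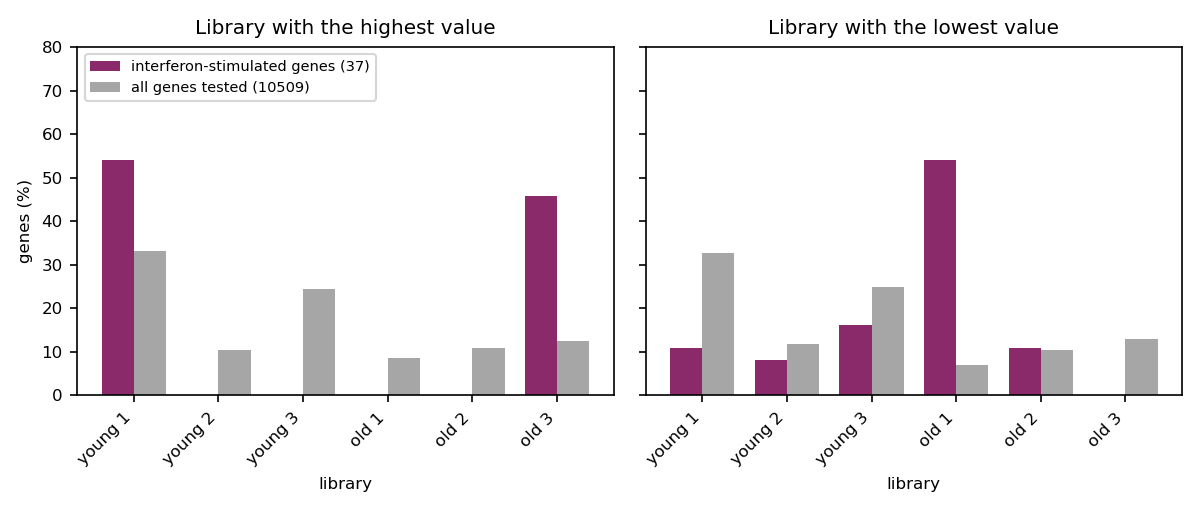
Share of genes with their highest (left) and lowest (right) value in each library, in percent, for the 37 genes and for all 10509 tested genes. Old replicate 3 holds the highest value of 45.9% of the 37 against 12.5% of all genes, and old replicate 1 the lowest of 54.1% against 6.98%.

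Summed over the 37, the FPKM in old replicates 1, 2 and 3 was 1121, 1151 and 1636, and in young replicates 1, 2 and 3 it was 1828, 1190 and 1306. Old replicate 3 and young replicate 1 were thus the high libraries on the per-length scale too. Other measures differed between the same libraries. Ifng, which encodes interferon gamma, stood at 63.6, 103 and 300 CPM in old and at 6.17, 29.4 and 36.9 CPM in young replicates 1, 2 and 3, so that it was highest in old replicate 3 and lowest in young replicate 1. The summed FPKM of 10 early genes of T-cell receptor stimulation, such as Cd69 and Egr2, was 2597, 2968 and 3464 in old and 1232, 2396 and 2008 in young replicates, in the same manner. High interferon-stimulated genes thus went with high Ifng and early activation genes in old replicate 3, and with low values of both in young replicate 1. Their part in the levels of the 37 genes was not tested.

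Active 2-5A synthetases sense double-stranded RNA and make the messenger that activates RNase L. Of the 5 genes of the family, which include synthetase-like ones, 1 was called, and 2 had a log2 difference above 0. Oas1a, a catalytically active member at chr5:120896256-120907544, stood at 24.9, 21.1 and 28.6 CPM in old replicates 1 to 3 and at 8.87, 10.6 and 9.32 CPM in young ones, from 154 to 525 counts. Every old library was above every young one, with means of 24.9 ± 3.72 and 9.60 ± 0.894 CPM (SD, n = 3 each). Oas1a rose 2.59-fold, or by 1.37 ± 0.19 on the log2 scale (n = 3 per group; ± is the SE here and in later log2 differences; edgeR adjusted p = 0.0306). Unlike most of the list, it was low in young replicate 1.

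The Oas1a call depended on which libraries and genes were counted. It was lost when any library other than young replicate 1 was left out, with a log2 difference of 1.26 to 1.49 and an adjusted p of 0.00803 to 0.132 over the 6 omissions. The omissions that lost it called 0 to 9 of all genes, against 92 with all libraries and 930 without young replicate 1. The Oas1a call was also lost (0.69 ± 0.26, adjusted p = 0.387) when the gene's counts were summed with Oas1c, Oas1d, Oas1e, Oas1f, Oas1g and Oas1h, which made up 33.1% of the sum. Oas1g shares 57.6% of the 50-base words of Oas1a transcripts, so reads can be split between them, yet Oas1g itself had an FPKM of at most 0.53. Most of the added counts were those of Oas1c, 65 to 272 per library, against at most 20 for Oas1g. Oas1c, at 4.19 to 6.90 CPM in old and 3.74 to 15.7 CPM in young libraries, had a log2 difference of -0.68 (adjusted p = 0.75).

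The Oas1a level was divided over 3 RefSeq models. A predicted non-coding model held 48.8% of the gene's FPKM, a predicted coding model 45%, and the curated coding model 6.25%. The non-coding model had FPKM of 9.79, 7.62 and 6.19 in old and 2.15, 4.27 and 3.28 in young replicates 1 to 3. The predicted coding model had 6.38, 6.8 and 10.8 in old and 3.55, 1.59 and 1.6 in young replicates. Old libraries were above young ones in both, as far as the model's division of reads holds, while the curated model (0 to 1.46 in old, 0.34 to 0.96 in young) overlapped.

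Oasl2, the most abundant of the family by length at a mean FPKM of 20.1, encodes a 2-5A synthetase-like protein. It stood at 14.9, 22.9 and 56.4 CPM in old and at 87.9, 53.7 and 40.2 CPM in young replicates. Old replicate 3 lay among the young libraries while the other old ones lay below all of them, and the log2 difference was -0.95 ± 0.51 (adjusted p = 0.611). Oasl1, which in mice restrains translation of Irf7, spanned 4.31-fold among old libraries, at 2.12, 3.87 and 9.14 CPM, against 8.64, 5.08 and 4.95 CPM in young ones. Its log2 difference was -0.30 ± 0.54 (adjusted p = 0.922), from as few as 39 counts. Oas2 was divided in the manner of Oasl2, at 7.66, 12.4 and 29.1 CPM in old and 40.3, 39.5 and 27.0 CPM in young libraries (-1.12 ± 0.46, unadjusted p = 0.0449, adjusted p = 0.45, n = 3 per group in edgeR). Oas3, the largest synthetase, was at 21.8 to 66.1 CPM in old and 31.7 to 41.4 CPM in young libraries, with its young range inside its old one.

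The IFIT proteins form complexes that bind viral RNA lacking the host's cap modifications. All 3 had log2 differences below 0, and 0 were called by edgeR, DESeq2 or limma, with 1 at an unadjusted edgeR p under 0.05. Ifit3 stood at 7.33, 13.1 and 39.8 CPM in old and at 76.6, 34.6 and 52.0 CPM in young replicates. The old libraries spanned 5.43-fold, and old replicate 3 was above the lowest young library, so the groups overlapped. Its log2 difference was the lowest of the 37, -1.44 ± 0.61 (adjusted p = 0.461), and -1.51 (adjusted p = 0.452) when summed with Ifit3b, with which it shares 51.2% of its 50-base words. Ifit1, which binds RNA with an unmodified cap, stood at 12.4, 19.3 and 42.4 CPM in old against 32.5, 26.1 and 29.8 CPM in young replicates (-0.25 ± 0.42, adjusted p = 0.91). Its young libraries were close together and lay inside the old range. Summed with Ifit1bl1 and Ifit1bl2, which held 58.7% of the sum and of which the first overlaps it, it gave -1.11 (adjusted p = 0.554). Ifit2 differed from both, with old libraries close together at 23.6 to 31.2 CPM and young replicate 1 alone high, at 74.1 CPM against 27.8 and 32.0.

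**Figure D5:**
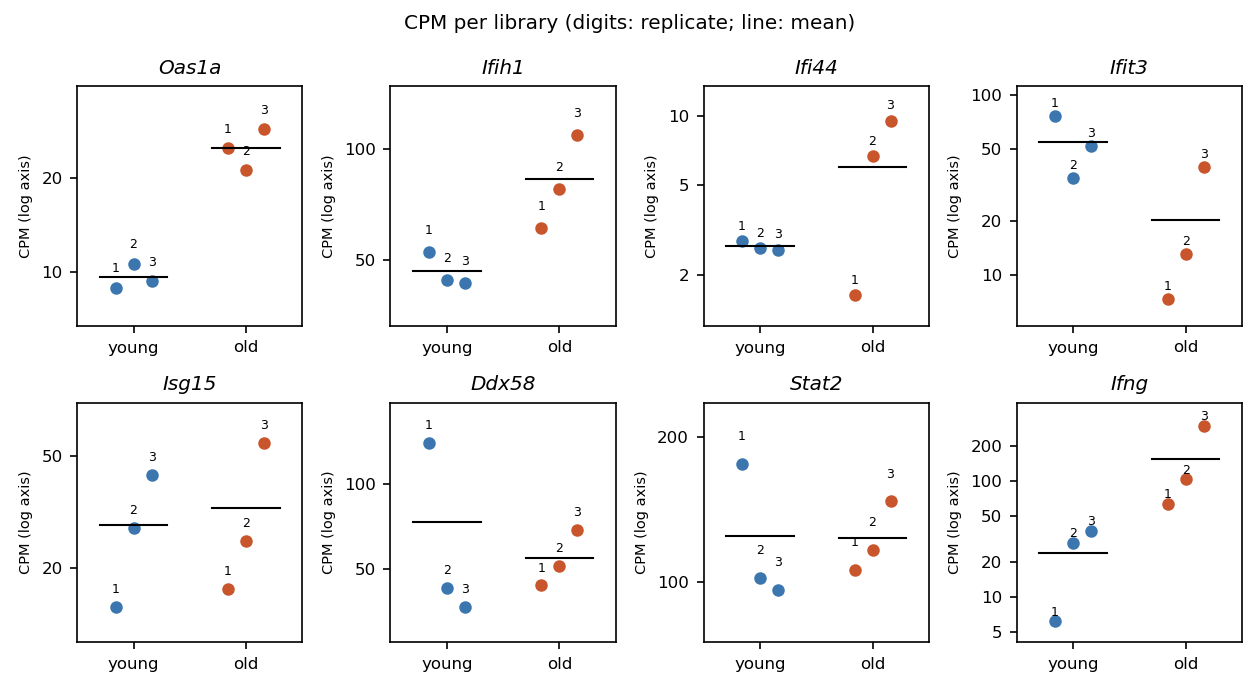
CPM (log axis) in each library for 6 of the 37 genes and for Stat2 and Ifng, with digits for the replicate and lines for group means. Oas1a and Ifih1 do not overlap between groups, while Ifit3 spans 7.33 to 39.8 CPM among old libraries and Ddx58 36.6 to 140 CPM among young ones.

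ISG15 is a ubiquitin-like protein that is conjugated to other proteins. Of the 4 genes of this system, 0 were called by edgeR, DESeq2 or limma, and 0 had an unadjusted edgeR p under 0.05. Isg15 stood at 16.8, 25.0 and 55.9 CPM in old and at 14.5, 27.8 and 43.0 CPM in young replicates. Both groups covered about the same range, and the log2 difference was 0.20 ± 0.52 (adjusted p = 0.958). With Bst2, Isg15 was among the genes whose lowest library of all 6 was young replicate 1, where most of the 37 were high. Trim25, a ubiquitin ligase that acts with RIG-I, stood at 69.6, 81.4 and 88.7 CPM in old and at 143, 91.8 and 98.6 CPM in young replicates. The groups did not overlap, with a gap of only a few CPM, and the log2 difference was -0.47 ± 0.21 (adjusted p = 0.498). Usp18, the protease that removes ISG15 and dampens the receptor, was at 14.5 to 31.9 CPM in old and 19.8 to 24.4 CPM in young libraries, and Herc6, the ISG15 ligase of mice, was at 19.4 to 35.3 and 19.8 to 33.6 CPM.

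Of the 5 nucleic acid sensors and the kinase Eif2ak2, 0 were called by edgeR or limma, 1 by DESeq2, and 1 had an unadjusted edgeR p under 0.05. Both counts are Ifih1, which encodes MDA5, the sensor of long double-stranded RNA. Ifih1 stood at 61.1, 77.7 and 109 CPM in old and at 52.5, 44.1 and 43.1 CPM in young replicates. All old libraries were above all young ones, and the log2 difference was 0.83 ± 0.23 (edgeR adjusted p = 0.215), or 0.82 with an adjusted p of 0.0437 in DESeq2. Without young replicate 1 edgeR called it too, at 0.92 ± 0.23 (adjusted p = 0.0463). Zbp1, a sensor of left-handed nucleic acid that can start necroptosis, had the highest level of the sensors, a mean FPKM of 125. It stood at 160, 164 and 260 CPM in old and at 297, 196 and 162 CPM in young replicates (-0.17 ± 0.29, adjusted p = 0.921), with the groups overlapping.

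Ddx58, which encodes RIG-I, the sensor of RNA with a 5' triphosphate, was set apart by young replicate 1. It stood at 43.7, 51.1 and 68.6 CPM in old and at 140, 42.8 and 36.6 CPM in young replicates, so that without the first young library every old one was above the young ones. Its log2 difference was -0.43 ± 0.51 with all libraries and 0.45 without young replicate 1, and neither value was called. Ddx60, a helicase linked to RIG-I, was also highest in young replicate 1, with 22.5 CPM in young replicate 1 against 6.50 to 9.58 CPM in the other libraries. Dhx58, the helicase LGP2 that regulates both sensors, was at 11.0 to 21.3 CPM in old and 13.2 to 19.8 CPM in young libraries. Eif2ak2, the kinase PKR that halts translation on double-stranded RNA, was at 24.6, 37.6 and 34.1 CPM in old replicates and at 21.4 to 38.4 CPM in young ones.

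Of the 7 measured antiviral effectors, 0 were called by edgeR, DESeq2 or limma, and 0 had an unadjusted edgeR p under 0.05. Bst2, which encodes tetherin, the protein that holds budding virions on the cell, had a mean FPKM of 124. It stood at 83.5, 90.5 and 129 CPM in old and at 54.7, 84.4 and 118 CPM in young replicates (0.24 ± 0.30, adjusted p = 0.88). Young replicate 1 was the lowest and old replicate 3 the highest, with the rest between. Trim30a, a regulator of inflammatory signalling, stood at 117, 150 and 216 CPM in old and at 179, 121 and 128 CPM in young replicates (0.17 ± 0.27, adjusted p = 0.905), again highest in old replicate 3.

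Samd9l, an inhibitor of translation, had close old libraries at 72.8, 86.3 and 94.3 CPM and a young group of 104, 44.2 and 34.7 CPM. It was not called with all libraries (0.47 ± 0.39, adjusted p = 0.788), but passed without young replicate 1, at 1.10 ± 0.16 (adjusted p = 0.00954). Rsad2, which encodes viperin, a maker of a chain-terminating nucleotide, was low at 2.66 to 10.1 CPM in old and 3.69 to 9.28 CPM in young libraries. Its neighbour Cmpk2, a mitochondrial nucleotide kinase, was at 2.34 to 5.99 CPM in old and 3.64 to 13.5 CPM in young libraries. Isg20, an RNA exonuclease, was at 13.8 to 35.5 and 15.8 to 23.5 CPM, and Rtp4, a chaperone of receptors, at 26.7 to 64.2 and 45.9 to 89.1 CPM.

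Dtx3l, Parp9 and Parp14 act in ADP-ribosylation, with DTX3L and PARP9 forming a ubiquitin ligase complex. For all 3 young replicate 1 was the highest library, and 0 were called by edgeR, DESeq2 or limma, with 0 at an unadjusted edgeR p under 0.05. Dtx3l stood at 163, 162 and 183 CPM in old and at 431, 178 and 190 CPM in young replicates (-0.65 ± 0.34, adjusted p = 0.603). The old libraries differed by at most 1.13-fold, the narrowest old spread of the 37, and 1 young library lay far above the other 5. Parp14 stood at 190, 235 and 268 CPM in old and at 351, 196 and 227 CPM in young replicates (-0.16 ± 0.26, adjusted p = 0.908). Parp9, which shares 558 annotated bases with Dtx3l, was at 70.1 to 106 CPM in old libraries and at 199, 81.9 and 75.5 CPM in young replicates.

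Of the 6 Ifi genes and Xaf1, a proapoptotic factor, 0 were called by edgeR, DESeq2 or limma, and 1 had an unadjusted edgeR p under 0.05. Ifi47, an interferon-inducible GTPase, had the highest level of the 37 at a mean FPKM of 297. It stood at 458, 383 and 545 CPM in old and at 710, 455 and 528 CPM in young replicates (-0.29 ± 0.23, adjusted p = 0.771). Ifi27l2a was next at a mean FPKM of 235, with 95.4, 84.9 and 115 CPM in old and 121, 87.6 and 114 CPM in young replicates (-0.13 ± 0.19, adjusted p = 0.902). The groups overlapped for both of these abundant transcripts, and their spread among old libraries was below 1.5-fold.

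Ifi204, a DNA-binding protein of the family that includes human IFI16, had the highest log2 difference of the 37 at the lowest mean FPKM, 1.27. It stood at 2.66, 3.12 and 7.89 CPM in old and at 0.576, 2.03 and 1.61 CPM in young replicates, from 10 to 145 counts. All old libraries were above all young ones, yet the error was wide (1.69 ± 0.59, adjusted p = 0.344), and 30.2% of its 50-base words occur in other genes. Ifi44 had the widest old spread, 5.88-fold, with 1.63, 6.67 and 9.58 CPM in old and 2.82, 2.62 and 2.59 CPM in young replicates. Its young libraries were nearly equal, with 1 old library below and 2 above them (1.15 ± 0.57, adjusted p = 0.569, from 30 to 176 counts). Ifi203, at 129 to 197 CPM in old libraries, was 460 CPM in young replicate 1 against 119 and 98.6 CPM. Ifi35 was at 71.1 to 99.95 CPM in old and 70.6 to 86.6 CPM in young libraries, and Xaf1 at 27.9 to 45.4 and 32.9 to 58.0 CPM.

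The Schlafens are restriction and growth-regulating factors of lymphocytes. Neither of the 2 was called by edgeR, DESeq2 or limma, and 0 had an unadjusted edgeR p under 0.05. Slfn8 stood at 75.9, 115 and 135 CPM in old and at 106, 60.9 and 55.6 CPM in young replicates (0.55 ± 0.31, adjusted p = 0.632). Without young replicate 1 it was at 0.90 ± 0.23 (adjusted p = 0.0497), at the edge of the threshold. Slfn5 stood at 73.1, 82.5 and 90.1 CPM in old and at 129, 50.3 and 80.2 CPM in young replicates (-0.08 ± 0.32, adjusted p = 0.97).

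Leaving out young replicate 1, which stood apart over all genes, gave a share of all genes called of 8.92%. Then 4 of the 37 were called by edgeR, all higher in old libraries: Oas1a, Ifih1, Samd9l and Slfn8. Among uncalled genes that were high in young replicate 1, Dtx3l moved from -0.65 to -0.12 and Ifit2 from -0.76 to -0.18. The sign turned for Parp9 (-0.52 to 0.08), Ddx60 (-0.56 to 0.28) and Ifi203 (-0.51 to 0.54). The log2 difference was above 0 for 24 of the 37, with a median of 0.09. The median was also above 0, at 0.07, without old replicate 1, and it was -0.04 without old replicate 2, -0.26 without young replicate 2 and -0.17 without young replicate 3. Leaving out old replicate 3 moved the list the other way, with 29 of 36 below 0, a median of -0.43 and 0 called by edgeR, in a fit that called 0.0855% of all genes. An unadjusted p under 0.05 was reached there by 7 of the 36 (19.4%), against 6.57% of all genes. Ifi204 was below the FPKM minimum in that fit. The sign of the median thus turned without young replicate 1 or old replicate 1, where the median over all genes was 0.007 and -0.039.

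Upstream of these genes, the ligands of type I interferon were at or near 0. Of 21 interferon ligand genes listed, 18 were matched in the table, and Ifng alone met the minimum for testing, with a log2 difference of 2.69 ± 0.78 (edgeR adjusted p = 0.224, called by DESeq2), all old libraries above all young ones. Ifnb1, the first type I interferon made in many cells, was at 1 count in young replicate 1 and at 0 in the other libraries. Ifnz had 8, 3 and 5 counts in old replicates 1 to 3 and 0 in each young library, too few to be tested. The 17 matched ligands below the minimum had an FPKM of at most 0.3.

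Of the 10 receptor, kinase and ISGF3 genes, 0 were called by edgeR, DESeq2 or limma, 0 had an unadjusted edgeR p under 0.05, and the median log2 difference was -0.08. Stat2, a subunit of ISGF3, stood at 106, 117 and 147 CPM in old and at 176, 102 and 96.3 CPM in young replicates (-0.02 ± 0.27, adjusted p = 0.992). Young replicate 1 was the high library and old replicate 3 the next. Irf9, its DNA-binding subunit, stood at 135, 123 and 163 CPM in old and at 234, 110 and 103 CPM in young replicates (-0.08 ± 0.33, adjusted p = 0.969), with the same libraries high. The receptor chains Ifnar1 (161 to 206.5 CPM in old, 161 to 302 in young) and Ifnar2 (49.7 to 57.6 and 37.7 to 64.5) did not follow them within the old group, where replicate 3 was their lowest library.

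Among the 9 interferon regulatory factors, 0 were called by edgeR or limma, 2 by DESeq2, and 2 had an unadjusted edgeR p under 0.05. Irf7, which amplifies interferon production and is itself a target, stood at 50.1, 59.8 and 116 CPM in old and at 128, 71.9 and 68.1 CPM in young replicates (-0.25 ± 0.38, adjusted p = 0.903), with the same high libraries as most of the 37. Irf5 was at 22.1 to 25.4 CPM in old and 7.88 to 12.7 CPM in young libraries (1.14 ± 0.22, adjusted p = 0.0807). Irf4, induced by T-cell receptor signals, was at 1628 to 2141 and 753 to 1602 CPM (0.64 ± 0.30, adjusted p = 0.537). The groups did not overlap for Irf4 or Irf5.

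Of the 11 tested genes of upstream sensing, 0 were called by edgeR or limma, 1 by DESeq2, and 1 had an unadjusted edgeR p under 0.05. Ikbke, a kinase of IRF3, was at 128 to 146 CPM in old and 232 to 599 CPM in young libraries, with no overlap (-1.44 ± 0.36, adjusted p = 0.157). Of the 8 negative regulators, 0 were called by the 3 tools and 2 had an unadjusted edgeR p under 0.05. These were Socs3 (0.99 ± 0.34, adjusted p = 0.316) and Ptpn11 (0.51 ± 0.16, adjusted p = 0.266), both with old libraries above young ones, while Pias4 had old libraries below young ones by a small margin (-0.19 ± 0.15, adjusted p = 0.758). Among the 5 enzymes that act with ISG15 or 2-5A, 0 were called by edgeR or limma, 1 by DESeq2, and 1 had an unadjusted edgeR p under 0.05. Ube2l6, the E2 enzyme that carries ISG15, was at 58.0, 59.7 and 89.2 CPM in old and 33.4, 35.9 and 45.9 CPM in young replicates (0.85 ± 0.23, adjusted p = 0.184), without overlap.

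In 48 further interferon-stimulated genes that are not among the 37, 0 were called by edgeR, DESeq2 or limma and 3 had an unadjusted edgeR p under 0.05. Their log2 difference was above 0 in 20 and had a median of -0.07. The library pattern of the 37 was shared in part by the 48. Within the old group replicate 3 was the highest for 38 of the 48 (79.2%), against 33.1% of all genes. Young replicate 1 held the highest value of all libraries for 31 of the 48 (64.6%), against 33.2% of all genes. Other parts were weaker. Old replicate 3 held the highest value of all libraries for 18.8% of the 48, 45.9% of the 37 and 12.5% of all genes. The lowest value was in old replicate 1 for 16.7%, 54.1% and 6.98%. The median SD of log2 CPM among old libraries was 0.24, 0.42 and 0.15. The groups did not overlap for Ly6a, a surface antigen of activated T cells, with old higher at 422 to 682 against 249 to 401 CPM (0.72 ± 0.25, adjusted p = 0.342). Nor did they for Ms4a4b, a membrane protein of T cells, with old lower at 200 to 285 against 358 to 925 CPM (-1.17 ± 0.39, adjusted p = 0.314).

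Markers of other cells that could enter the sort were low beside those of CD4 T cells, and for some the ranges of the groups did not overlap. The summed FPKM of 7 plasmacytoid dendritic cell genes, a cell known for type I interferon, was 10.3 to 12.1 in old and 7.51 to 15.0 in young libraries, with 0 of the 7 at 0 in all libraries. For 6 conventional dendritic cell genes it was 6.38 to 7.46 and 3.71 to 5.35, with Cd209a at 0 in all 6 libraries. The 8 genes of monocytes, macrophages and neutrophils summed to 6.72 to 31.2 in old and 31.4 to 72.9 in young libraries. The 5 NK genes summed to 2.98 to 6.29 and 0.63 to 1.59, the 7 B-cell genes to 10.8 to 24.2 and 15.1 to 36.6, and the 2 CD8 genes to 7.28 to 9.69 and 10.9 to 18.2. Besides Cd209a, 0 of these genes were at 0 in all libraries. Some sums rested largely on 1 or 2 genes. In the CD8 sum Cd8b1 held 6.61 to 9.02 in old and 10.3 to 17.8 in young libraries. Cd8a overlapped, at 0.64 to 0.67 in old and 0.44 to 0.77 in young libraries. In the monocyte, macrophage and neutrophil sum, S100a8 held 0.9 to 9.11 in old and 9.59 to 23.1 in young libraries. S100a9 held 1.77 to 16.5 and 15.5 to 39.2, and it overlapped between groups, as did Lyz2 and Fcgr3. In the NK sum Gzma held 2.5 to 5.86 in old and 0.34 to 1.55 in young libraries. In the conventional dendritic sum Zbtb46 held 3.53 to 4.91 and 1.6 to 2.15, while Flt3 and Xcr1 overlapped between groups. In the plasmacytoid sum Runx2 held 5.62 to 6.59 and 1.23 to 3.08, while Ly6d was lower in old libraries. Of all 6 libraries, young replicate 1 had the highest plasmacytoid and B-cell sums. Of the plasmacytoid genes Ly6d, at 8.33, Ccr9 and Cox6a2 were highest there. Siglech and Klk1 were highest in young replicate 2, Tcf4 in old replicate 1 and Runx2 in old replicate 2. The sum for monocytes, macrophages and neutrophils was about equal in young replicates 1 and 3, at 72.9 and 72.7. Old replicate 3 was the highest for conventional dendritic cell genes, at 7.46. The part of these cells in the levels of the 37 genes was not tested.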

How the data were processed

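Total RNA from 6 libraries of CD4+ T cells, 3 old and 3 young, was sequenced on an Illumina instrument, per the labels' protocols. The authors deposited 1 table that lists, for 66712 RefSeq transcripts, each library's expected count and FPKM, per the file headers. Bowtie, RSEM and GRCm38 (mm10) come from the submitters' processing notes, while versions and the strandedness of counting were not given in the sources used here. The program RSEM divides reads shared by several transcripts, so an expected count can move between near-identical genes.

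Expected counts and FPKM were summed per gene (19977, of which 19830 matched a RefSeq symbol), and the summed counts were rounded. Genes whose FPKM averaged at least 1 were fitted with edgeR 4.0.16 (quasi-likelihood test, TMM factors) in R 4.3.3, all 6 libraries together with group as the only term, and called where the Benjamini-Hochberg adjusted p was under 0.05 over all 10509 genes. The SE is the log2 difference over the square root of F. The test was tried on simulated data with known changes. No 2 libraries of the same group agreed within sampling noise (smallest chi-square per degree of freedom 26.4). Alternatives were RLE factors, other filters, DESeq2 1.42.0, limma 3.58.1 on log2 FPKM with pseudocounts of 1 and 0.1, a replicate block, sums over near paralogs, and leaving out each library.

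Genes given in full were those called, the 2 of each role with the highest mean FPKM, those spanning more than 4-fold among old libraries, and those whose groups do not overlap. Pathway genes were named where called or not overlapping, besides 8 genes fixed by name. Of these pathway genes, 2 are not reported here. The other members are given in short, and Ddx58 and Samd9l were set apart after their values were seen. Members and lists were chosen with earlier results of these data known. Promoters came from RefSeq on GRCm38.p6, and shared 50-base words from GENCODE protein-coding transcripts. Figures were drawn with matplotlib 3.10.9.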

Additional observations from a re-analysis of the deposited data

How the results depend on the processing

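Without a filter 203 genes were called over all genes, with the FPKM minimum at 5 it was 55, with DESeq2 501, and when 1 library was left out 0 to 930. Among the 37 the count was 2 with DESeq2, 0 with the replicate block and 0 to 4 when 1 library was left out, and 1 under the other settings except sums over near paralogs, where it was 0. Their median log2 difference was -0.162 to -0.088 under the settings that kept all libraries, and -0.428 to 0.088 when 1 was left out. The count highest in old replicate 3 was 17 with CPM and with FPKM. The main comparison did not pair libraries by number. Same-numbered libraries deviated together at 0.231, -0.023 and 0.196, and differently numbered ones at -0.341 to 0.355. With 3 libraries per group these values cannot show or exclude a pairing. With the replicate block 119 genes were called, and Oas1a was at 1.37 (adjusted p = 0.0502).

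Signs of values near 0 turned. Dhx58 was 0.02 without a filter. With limma Usp18, Rsad2 and Slfn5 were -0.003, -0.01 and 0.029 (pseudocount 1) and -0.008, -0.038 and 0.038 (pseudocount 0.1), and with the replicate block -0.016, -0.021 and 0.023. When 1 library was left out, the range of the log2 difference crossed 0 for 20 genes: Oasl1 -1.051 to 0.065, Oas3 -0.212 to 0.558, Ifit1 -0.891 to 0.068, Isg15 -0.437 to 0.614, Usp18 -0.309 to 0.281, Herc6 -0.263 to 0.317, Ddx58 -0.759 to 0.454, Ddx60 -0.864 to 0.276, Dhx58 -0.34 to 0.188, Zbp1 -0.431 to 0.12, Eif2ak2 -0.046 to 0.389, Rsad2 -0.632 to 0.564, Isg20 -0.296 to 0.465, Trim30a -0.095 to 0.367, Parp9 -0.768 to 0.075, Parp14 -0.331 to 0.126, Ifi35 -0.095 to 0.169, Ifi203 -0.884 to 0.538, Xaf1 -0.562 to 0.031 and Slfn5 -0.358 to 0.326. The cause was not tested. Leaving out a library leaves 2 in its group, and low counts (Ifi204, Ifi44, Oasl1) limit what can be detected.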
